A study of Mus musculus with 18 samples.

Results

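The scaffold genes of the excitatory postsynaptic density described here are Dlg1, Dlg2, Dlg3 and Dlg4, which form the PSD-95 family, with Shank1, Shank2, Shank3 and Dlgap1, the protein that joins both families. They were chosen by symbol, and all 8 were found among the 39017 gene identifiers of the deposited tables, with 332 of 355320 exon bins (numbered stretches of the exons of a gene). In mm10, all on the plus strand, the PSD-95 family comprises Dlg1 (ENSMUSG00000022770) at chr16:31663443-31875129, Dlg2 (ENSMUSG00000052572) at chr7:90476672-92449247, Dlg3 (ENSMUSG00000000881) at chrX:100767722-100818410 and Dlg4 (ENSMUSG00000020886) at chr11:70016942-70047522. The others are Shank1 (ENSMUSG00000038738) at chr7:44310253-44360572, Shank2 (ENSMUSG00000037541) at chr7:144001928-144424494, Shank3 (ENSMUSG00000022623) at chr15:89499623-89560261 and Dlgap1 (ENSMUSG00000003279) at chr17:69969073-70821413. RNA carried by ribosomes had been purified from mouse brain by translating ribosome affinity purification (TRAP) and sequenced, with 1 library per mouse and 18 libraries in all. Silencing was done with a vector for an shRNA against Ptbp1 in 4 mice, against a vector for a scrambled shRNA in 5 mice. Overexpression was done with a vector for Ptbp1 in 5 mice, against a control vector in 4 mice. All of these vectors also carried mCherry, and 1 mouse per experiment had been left out by the submitters for lack of mCherry reads. The series is titled for entorhinal cortex layer II neurons and pools both entorhinal cortices of a mouse, whereas the libraries' tissue label is hippocampus. The sources used here do not state age, strain, the cell type that carries the tagged ribosomes or the promoters of the vectors.

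The proteins of this group stand in layers under the membrane of the dendritic spine. PSD-95 and its relatives hold glutamate receptors, ion channels and adhesion molecules through PDZ domains, Dlgap1 (GKAP) binds their guanylate kinase domain, and the Shank proteins bind Dlgap1 and Homer and reach the actin skeleton. Ptbp1 encodes polypyrimidine tract binding protein 1, which represses many exons outside neurons, and its neuronal paralog Ptbp2 shares many of these exons. Dlg4, the gene of PSD-95, is a textbook target: both proteins are known to hold exon 18 out of its mRNA, and mRNA without this exon shifts its reading frame and is degraded by nonsense-mediated decay.

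Exon 18 of Dlg4 and its junctions are shown because this is the exon of the group that Ptbp1 is known to act on. In the GENCODE annotation of release M 21 (mm10, the transcript with 20 exons, plus strand) the exon lies at chr11:70043658-70043767, is coding throughout, and has 110 bases, which leaves a remainder of 2 when divided by 3. In the exon, capitals mark the 1 match found on the transcript strand to the pyrimidine motifs TCTT, CTCT and TTCT. In the junction of exon 17 with exon 19, capitals mark the stop codon TAA that the shifted frame reaches 9 bases after the junction. In the junction of exon 18 with exon 19 the same bases of exon 19 are read in another frame. Each junction shows 30 bases on either side.
Dlg4 exon 18: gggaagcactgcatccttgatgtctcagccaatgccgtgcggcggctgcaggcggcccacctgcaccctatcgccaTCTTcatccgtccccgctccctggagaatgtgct
Dlg4 exon 17 joined to exon 19: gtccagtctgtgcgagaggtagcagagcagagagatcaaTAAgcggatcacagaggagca
Dlg4 exon 18 joined to exon 19: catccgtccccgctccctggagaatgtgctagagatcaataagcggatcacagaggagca
Of the annotated Dlg4 transcripts 1 skips the exon, and it is annotated as a target of nonsense-mediated decay.

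The libraries differed in quality between the experiments. Gene counts totalled 34339355 to 46544178 in the silencing libraries and 18288627 to 39056655 in the overexpression libraries, yet well covered exon bins (50 counts or more on average) had dropped to 0 in 1.24% to 8.30% of cases per silencing library, against 0.0213% to 0.0551% per overexpression library. The common biological coefficient of variation was 90.1% in silencing and 22.3% in overexpression. Simulated 4-fold changes were found for 99 of 200 genes at the spread of the silencing libraries, and for 200 of 200 at that of the overexpression libraries. The changed genes were drawn only from those above a minimum mean level, so these shares do not give the power of the tests on the scaffold genes. Ptbp1 averaged 137 ± 14.9 CPM (counts scaled to the TMM library size) in the Ptbp1 overexpression libraries and 13.3 ± 3.03 CPM in the control vector libraries (SD, n = 5 and 4), which passed the test (edgeR adjusted p = 5.48e-08). In the silencing experiment Ptbp1 averaged 5.09 ± 6.10 CPM in libraries labelled Ptbp1 shRNA and 4.10 ± 3.76 CPM in those labelled scrambled shRNA (SD, n = 4 and 5), so that a fall of Ptbp1 was not detectable, and directions below belong to the labels. Neither Ptbp2 (log2 fold change -0.18) nor Ptbp3 (0.26) was called in silencing, with edgeR adjusted p = 0.902 and 0.853. All 6 markers of excitatory neurons were found in every group. Their summed level was 1232 to 2569 CPM in libraries labelled Ptbp1 shRNA and 2681 to 4332 CPM in scrambled shRNA libraries, which do not overlap, and 2096 to 2913 CPM with Ptbp1 overexpression against 2429.7 to 3159.9 CPM with the control vector. The 5 markers of entorhinal layer II, among them Reln and Calb1, were also found in every group, at summed levels of 224 to 463 and 257 to 470.1 CPM with Ptbp1 shRNA and scrambled shRNA, and 396 to 578 and 425 to 527 CPM with Ptbp1 overexpression and control vector. The 7 hippocampal markers, which share Wfs1 with the layer II list, summed to 237 to 434, 221 to 407, 138 to 189 and 146 to 201 CPM in the same order of groups. Of these, Man1a had medians of 227, 135, 30.4 and 35.3 CPM. Fibcd1 and Wfs1 ran the other way, with medians of 0.0915, 0.156, 12.2 and 7.80 CPM and of 10.4, 28.7, 41.2 and 50.1 CPM. The region of origin was not tested with these sums.

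All 8 scaffold genes were present in the ribosome-bound RNA of every library, and their levels spanned a wide range. Levels between genes are compared per length, as CPM per kilobase of all annotated exons of the gene. Dlg4 stood first in the overexpression experiment, at 48.2 ± 3.95 CPM per kilobase with Ptbp1 overexpression and 55.0 ± 6.68 with the control vector (SD, n = 5 and 4). Its range lay above that of Dlgap1, next in order, in both groups. Dlgap1 had 34.1 ± 5.03 CPM per kilobase with Ptbp1 overexpression and 37.5 ± 5.35 with the control vector. Shank1 and Shank2 followed at 28.6 ± 8.12 and 27.7 ± 8.30 CPM per kilobase with Ptbp1 overexpression, and at 31.1 ± 5.28 and 32.2 ± 3.38 with the control vector. These ranges overlapped each other and that of Dlgap1. Below them by mean came Dlg3, the X-linked member, and Dlg2, whose ranges also overlapped. With Ptbp1 overexpression the ranges of Shank1 and Shank2 reached over that of Dlg3. Dlg1 was next at 13.5 ± 0.887 CPM per kilobase with Ptbp1 overexpression and 12.8 ± 1.15 with the control vector. Shank3 was lowest at 4.52 ± 1.05 CPM per kilobase with Ptbp1 overexpression and 5.00 ± 0.633 with the control vector, below the range of every other scaffold gene. When the longest annotated transcript was taken as the length, Dlgap1 stood first, at 83.8 and 92.2 CPM per kilobase in these groups, and Dlg4 followed at 72.3 and 82.6.

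The order was different in the silencing experiment. Shank2 stood first there, at 93.2 ± 14.5 CPM per kilobase with Ptbp1 shRNA and 91.9 ± 15.8 with scrambled shRNA (SD, n = 4 and 5), ahead of Dlgap1 at 48.7 ± 10.8 and 63.2 ± 16.6, whose range it overlapped in the scrambled shRNA group. Dlg4 had 13.2 ± 5.29 CPM per kilobase with Ptbp1 shRNA and 13.97 ± 4.87 with scrambled shRNA, and its range overlapped that of Dlg3 in both groups. Shank3 was lowest again, at 1.75 ± 1.11 and 0.878 ± 0.421 CPM per kilobase. With the longest transcript as the length Dlgap1 stood first here too, at 119.8 and 155 CPM per kilobase, and Shank2 followed at 109.8 and 108. Per gene, Dlg4 had 36.6 to 106 CPM over the silencing libraries and 225 to 332 CPM over the overexpression libraries, and Shank2 had 701 to 1186 CPM in silencing and 149 to 378 CPM in overexpression. The experiments share no libraries, and experiment and library quality cannot be told apart, so these differences between experiments carry no test. In such bulk RNA, fewer cells of a type and less RNA per cell cannot be told apart either.

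**Figure D1:**
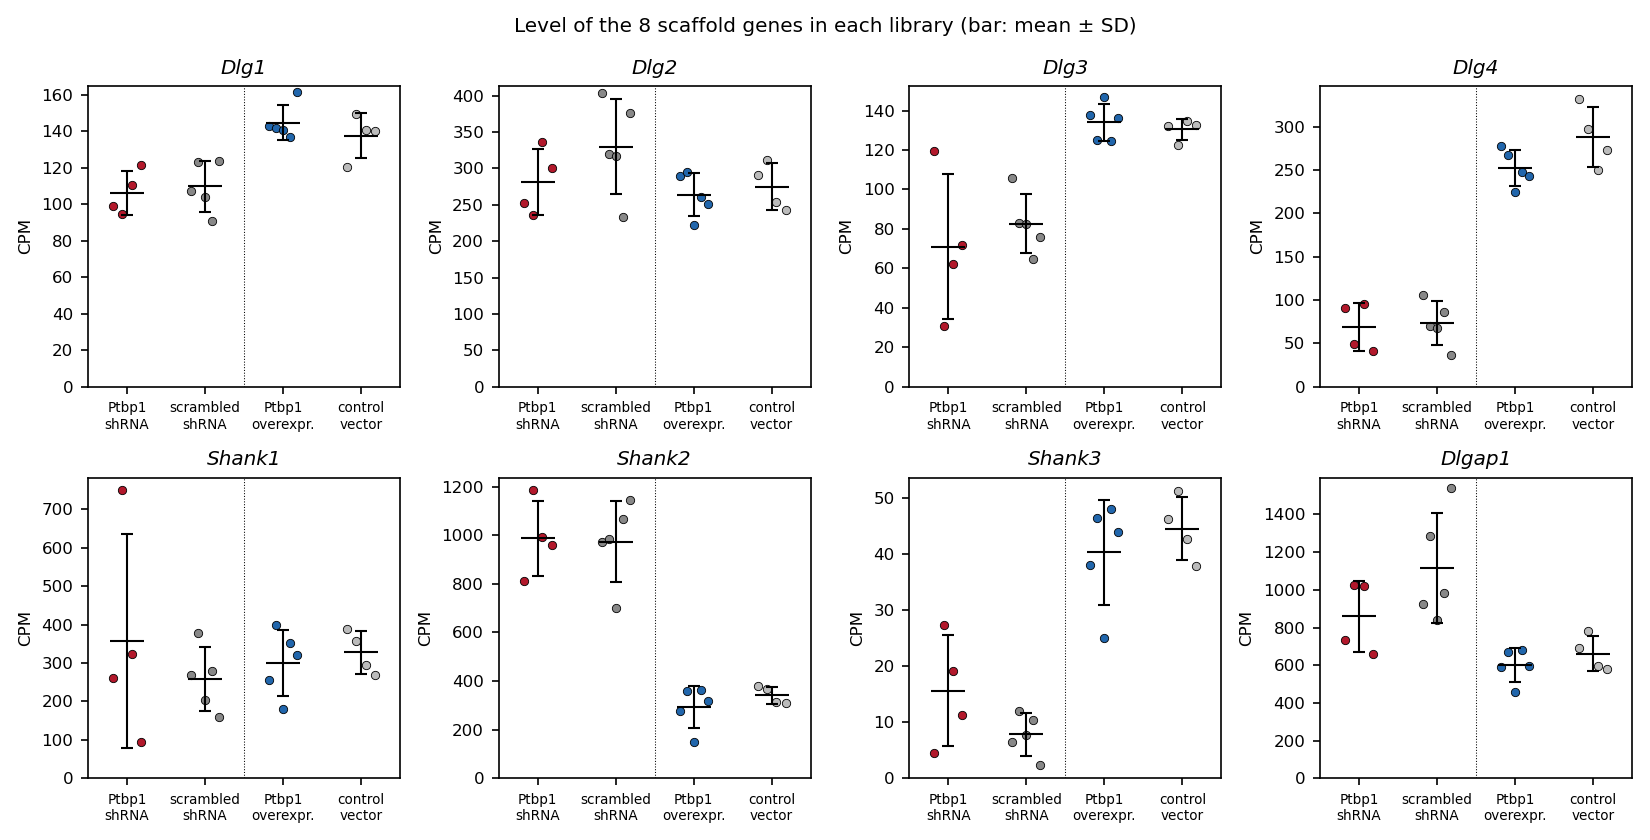
Each panel plots 1 gene, with CPM (counts scaled to the TMM library size) on the vertical axis and the 4 groups on the horizontal axis. Points are libraries, 4, 5, 5 and 4 from left to right, and bars are the mean ± SD. Within each experiment the groups overlap for all 8 genes. Ptbp1 overexpression replicate 3 is the lowest library of its experiment for Dlg2, Dlg4, Shank1, Shank2, Shank3 and Dlgap1, and the highest for Dlg3.

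In the silencing experiment none of the 8 scaffold genes passed the test, and the groups overlapped for every one of them, while they did not overlap for 4.84% of all genes. The question was whether the shRNA against Ptbp1 moved these mRNAs on ribosomes, and edgeR's quasi-likelihood F test with Benjamini-Hochberg adjustment over 14656 genes gave 0 calls, or 0% of all genes tested, and 0 among the scaffold genes. At an unadjusted p under 0.05 it gave 1639 genes, or 11.2%, and 0 of the 8. DESeq2 called 709 genes, none of them a scaffold gene. The log2 fold changes of the scaffold genes were above 0 for 3 and below 0 for 5, with a median of -0.06, against 0.03 for all genes tested.

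Dlg4 itself had 90.5, 49.9, 95.3 and 41 CPM in libraries labelled Ptbp1 shRNA, against 106, 69.9, 68.0, 86.0 and 36.6 CPM in the scrambled shRNA libraries. The ranges of both groups overlap over most of their length. The log2 fold change was -0.08 with a 95% interval of -0.88 to 0.71 (edgeR adjusted p = 0.965, n = 4 and 5), and it was above 0 without replicate 2 (0.04) or 4 (0.10) of Ptbp1 shRNA, or replicate 1 of scrambled shRNA (0.09). Dlg2, which encodes PSD-93, had 253, 236, 337 and 300.4 CPM with Ptbp1 shRNA and 404, 319, 318, 233 and 376 CPM with scrambled shRNA. Its highest values belong to scrambled shRNA libraries, and so does its lowest. Its log2 fold change was -0.23 (interval -0.69 to 0.23, adjusted p = 0.767). Dlg1, which encodes SAP97, stood at -0.05 on the log2 scale (interval -0.53 to 0.44), and at 0.00 without replicate 2 of Ptbp1 shRNA or replicate 5 of scrambled shRNA. Dlg3, the gene of SAP102, had 119, 30.7, 62.0 and 71.8 CPM with Ptbp1 shRNA and 106, 83.3, 82.5, 65.0 and 76.1 CPM with scrambled shRNA. Both the highest and the lowest library carried the Ptbp1 shRNA label, and the log2 fold change was -0.22 (interval -0.99 to 0.55, adjusted p = 0.882) and 0.02 without Ptbp1 shRNA replicate 2.

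Shank1 and Shank3 had the largest spread over the libraries labelled Ptbp1 shRNA, with coefficients of variation of 78.2% and 63.5%. Shank1 had 260.1, 749, 324 and 94.2 CPM with Ptbp1 shRNA and 268, 379, 204, 279 and 158 CPM with scrambled shRNA. Ptbp1 shRNA replicate 2 is far above the others. It also has the largest share of well covered exon bins at 0, 8.30%, and a link between them was not tested. With all libraries the log2 fold change of Shank1 was 0.47 (interval -0.50 to 1.44, adjusted p = 0.778), and without replicate 2 it was -0.20. Shank3 had 4.43, 27.3, 19.2 and 11.3 CPM with Ptbp1 shRNA, against 6.56, 11.97, 7.79, 10.4 and 2.30 CPM with scrambled shRNA. Of the Ptbp1 shRNA libraries 3 lay above the scrambled shRNA mean and 1 below it. Its log2 fold change of 0.99 has an interval of -0.45 to 2.44 (adjusted p = 0.641), and was 0.57 without replicate 2. Shank2 had 812, 1186, 991 and 960.2 CPM with Ptbp1 shRNA and 972, 984, 701, 1066 and 1144 CPM with scrambled shRNA, a log2 fold change of 0.02 (interval -0.39 to 0.43), which was -0.09 without Ptbp1 shRNA replicate 2 and -0.08 without scrambled shRNA replicate 3. Dlgap1 had 733, 1025, 1018 and 660.0 CPM with Ptbp1 shRNA and 924, 1288, 838, 984 and 1542 CPM with scrambled shRNA. All 4 of its Ptbp1 shRNA libraries were below the scrambled shRNA mean, and the groups still overlapped. The log2 fold change was -0.38 (interval -0.87 to 0.12, adjusted p = 0.590). The part of the lower summed level of excitatory neuron markers in these values was not tested.

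Overexpression of Ptbp1, which was measurable in the libraries, also left all 8 scaffold genes short of the test. Of 16480 genes 7 were called, or 0.0425%, among them Ptbp1 and Ptbp2, the neuronal paralog, whose level was 47.5 ± 6.51 CPM with Ptbp1 overexpression and 109 ± 2.54 CPM with the control vector. At an unadjusted p under 0.05 there were 788 genes, or 4.78%, and 0 of the 8 scaffold genes. The groups overlapped for all 8 genes, while they did not overlap for 1.81% of all genes. Of the fold changes 2 were above 0 and 6 below, with a median of -0.13 on the log2 scale, against 0.00 for all genes. On the log2 scale the widest interval was that of Shank2, from -0.65 to 0.22.

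Dlg4 had 278, 268, 225, 248 and 244 CPM in the Ptbp1 overexpression libraries, against 332, 297, 250.3 and 273 CPM in the control vector libraries. All 5 libraries with Ptbp1 overexpression lay below the control mean of 288 CPM, and the upper ones reached into the control range. The log2 fold change was -0.19 with a 95% interval of -0.39 to 0.01, that is 0.762-fold to 1.01-fold, with an unadjusted p of 0.0604 and an edgeR adjusted p of 0.974 (n = 5 and 4). Without 1 library at a time it stayed between -0.26 and -0.12. The summed excitatory neuron markers were 2096 to 2913 CPM with Ptbp1 overexpression and 2429.7 to 3159.9 CPM with the control vector, and their part in the value of Dlg4 was not tested.

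The other members of the PSD-95 family stayed closer to their controls. Dlg1 averaged 145 ± 9.52 CPM with Ptbp1 overexpression and 138 ± 12.3 CPM with the control vector, a log2 fold change of 0.07 (interval -0.11 to 0.26). Dlg2 averaged 264 ± 29.5 CPM with Ptbp1 overexpression and 275 ± 32.3 CPM with the control vector, a log2 fold change of -0.06 with an interval of -0.28 to 0.16, and 0.01 without control replicate 2. Dlg3 averaged 134 ± 9.32 CPM with Ptbp1 overexpression and 130.5 ± 5.42 CPM with the control vector, a log2 fold change of 0.04 with an interval of -0.13 to 0.21, and -0.00 without Ptbp1 overexpression replicate 3.

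The Shank genes and Dlgap1 all had fold changes below 0, and these were closer to 0 without 1 library. Shank2 had 275, 361, 149, 362 and 319 CPM with Ptbp1 overexpression and 378, 367, 313 and 309 CPM with the control vector. Replicate 3 of the Ptbp1 overexpression group is the low one. Its share of well covered exon bins at 0 was 0.0551%, close to the 0.0515% of control replicate 3, and a link with the levels was not tested. The log2 fold change of Shank2 was -0.22 (interval -0.65 to 0.22, adjusted p = 0.974), and -0.06 without Ptbp1 overexpression replicate 3. Shank1 had 255, 398, 179, 352 and 319.9 CPM with Ptbp1 overexpression and 389, 358, 295 and 268 CPM with the control vector, a log2 fold change of -0.12 with an interval of -0.54 to 0.29 and 0.01 without replicate 3. Shank3 had 37.96, 46.5, 25.0, 48.0 and 43.8 CPM with Ptbp1 overexpression and 46.2, 51.2, 42.7 and 37.8 CPM with the control vector, a log2 fold change of -0.14 with an interval of -0.50 to 0.21 and -0.02 without replicate 3. Dlgap1 had 593, 672, 459.9, 681 and 599 CPM with Ptbp1 overexpression and 689, 783, 594 and 579 CPM with the control vector, a log2 fold change of -0.14 (interval -0.39 to 0.12), which was -0.06 without replicate 3 and -0.05 without control replicate 2. For all 4 genes replicate 3 is the lowest of the 9 libraries, as it is for Dlg2 and Dlg4, while it is the highest for Dlg3.

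**Figure D2:**
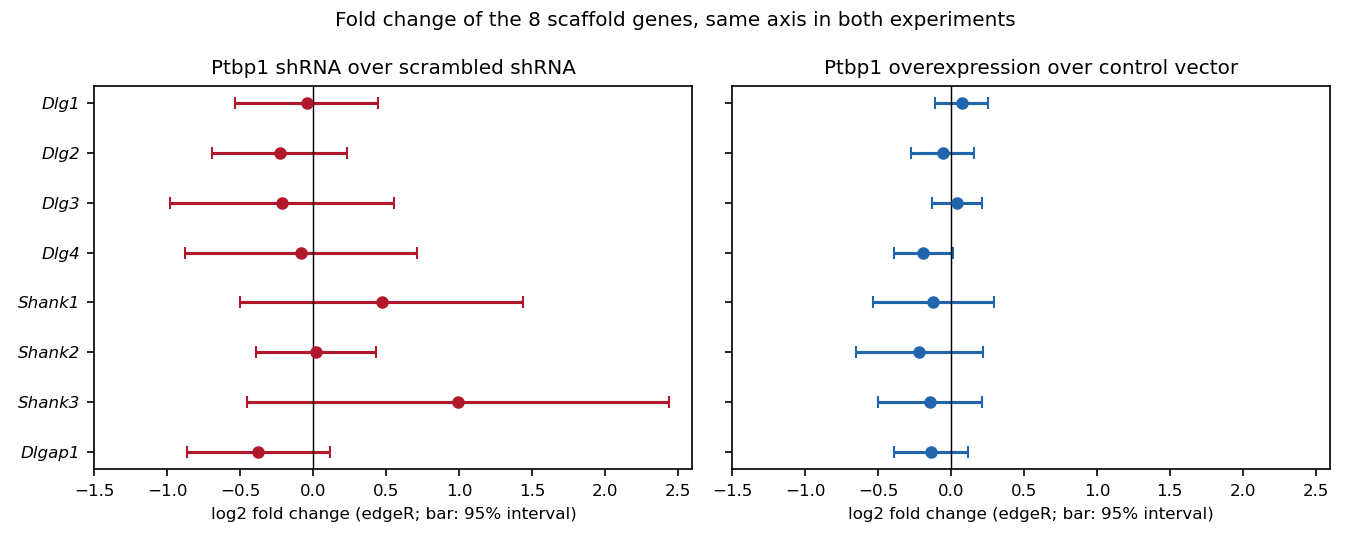
Points are log2 fold changes of the 8 scaffold genes, on the left for libraries labelled Ptbp1 shRNA over scrambled shRNA and on the right for Ptbp1 overexpression over control vector, and bars are 95% intervals of edgeR's fit. Every interval includes 0. The intervals are wider in silencing than in overexpression for every gene but Shank2. That of Shank3 ends at 2.44 in silencing, and all lie between -0.65 and 0.29 in overexpression.

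Fitted over all 18 libraries, the responses to overexpression and silencing were also compared with each other, as the difference of both log2 fold changes. The test called 40 of 17779 genes, or 0.225%, and 0 of the 8 scaffold genes. An unadjusted p under 0.05 was found for 14.6% of all genes and for 0 of the 8. The largest difference was that of Shank3, -1.13 with a 95% interval of -2.45 to 0.20 (edgeR adjusted p = 0.436). For Dlg4 it was -0.10 (interval -0.87 to 0.68). This fit takes 1 spread for both experiments, whose common biological coefficients of variation were 90.1% in silencing and 22.3% in overexpression. Its standard error for Shank3, 0.634, is below the 0.669 of the silencing fit alone, though a difference of both cannot be more certain. The calls, shares and intervals of this comparison thus understate the uncertainty of silencing.

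Usage of exon 18 of Dlg4 differed between the groups of each experiment by less than the spread between libraries. Since mRNA without this exon is known to be degraded, the share of exon 18 in the counts can miss skipping. The deposited files number 46 bins for Dlg4 where the annotation used here gives 45, so the exon was placed by inference at bin 41: bin 42, with 3 counts over all silencing libraries and 4 over all overexpression libraries, has the place of a stretch that only a retained-intron transcript holds, just before exon 19, and bins 40 and 43 are then exons 17 and 19. Bin 41 held 2996 counts in the silencing and 7234 in the overexpression libraries. As a share of all bin counts of Dlg4, it took 6.80%, 7.76%, 7.33%, 6.51% and 6.26% in the Ptbp1 overexpression libraries, against 6.999%, 6.72%, 6.66% and 7.43% in the control vector libraries. Both the highest and the lowest of these 9 libraries carry Ptbp1 overexpression, and the control libraries lie between them. The difference was -0.0200 percentage points with a 95% interval of -0.826 to 0.853 (exact two-sided permutation p = 0.952, where the design allows no p below 0.0159), and it was above 0 without Ptbp1 overexpression replicate 1 (0.0127), 4 (0.0858) or 5 (0.148) or control replicate 4 (0.139). EdgeR's test of relative usage gave a log2 value of -0.00 (adjusted p = 1.00).
Against its neighbours alone, exon 18 took 34.1% ± 0.695 of the counts of exons 17, 18 and 19 with Ptbp1 overexpression and 34.6% ± 0.727 with the control vector (SD, n = 5 and 4). That difference was -0.435 percentage points (interval -1.71 to 0.638, exact two-sided permutation p = 0.365). All 9 libraries lay between 33.3% and 35.6%.

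In the silencing experiment exon 18 took 10.95%, 9.33%, 2.18% and 5.06% of the Dlg4 counts in the libraries labelled Ptbp1 shRNA, against 9.55%, 5.32%, 7.81%, 5.31% and 7.83% in the scrambled shRNA libraries. The highest and the lowest library both carry the Ptbp1 shRNA label. The difference was -0.281 percentage points with an interval of -5.62 to 4.82 (exact two-sided permutation p = 0.841), and it was above 0 without replicate 3 (1.29) or 4 (0.325) of Ptbp1 shRNA, or replicate 1 of scrambled shRNA (0.316). Of the counts of exons 17, 18 and 19, exon 18 took 35.6%, 33.3%, 32.6% and 27.7% in the Ptbp1 shRNA libraries and 34.3%, 32.4%, 34.3%, 32.3% and 29.6% in the scrambled shRNA libraries. That difference was -0.264 percentage points (interval -4.63 to 3.497, exact two-sided permutation p = 0.889).

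**Figure D3:**
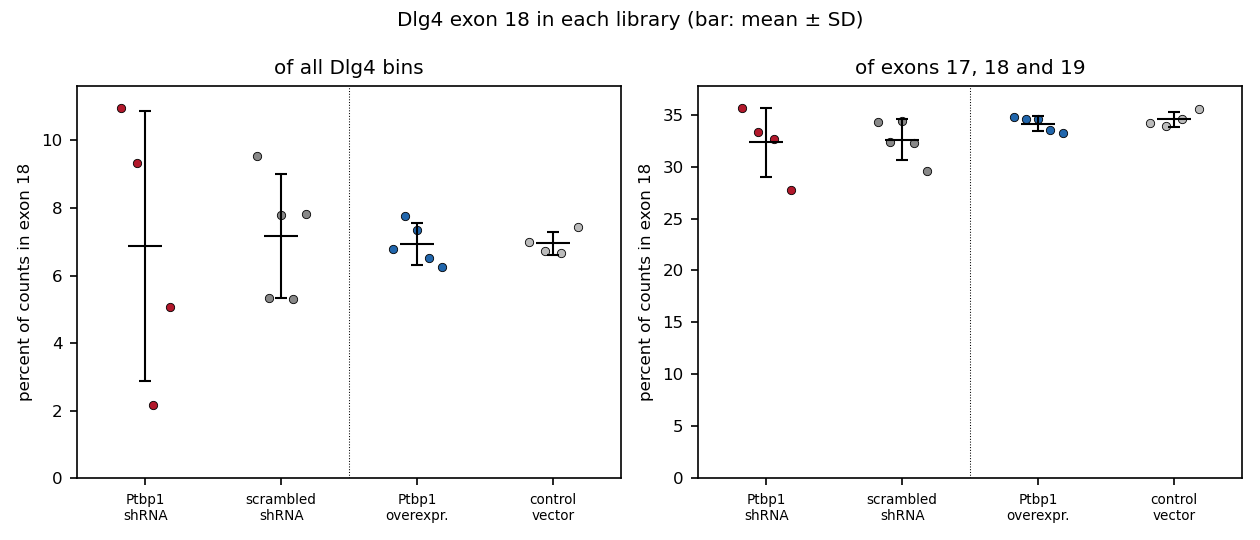
The vertical axes give the percent of counts in exon 18 of Dlg4, on the left of all Dlg4 bins and on the right of exons 17, 18 and 19, for the 4 groups on the horizontal axis. Points are libraries and bars are the mean ± SD. On the right the overexpression libraries lie between 33.3% and 35.6%, and on the left the libraries labelled Ptbp1 shRNA run from 2.18% to 10.95%.

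**Figure D4:**
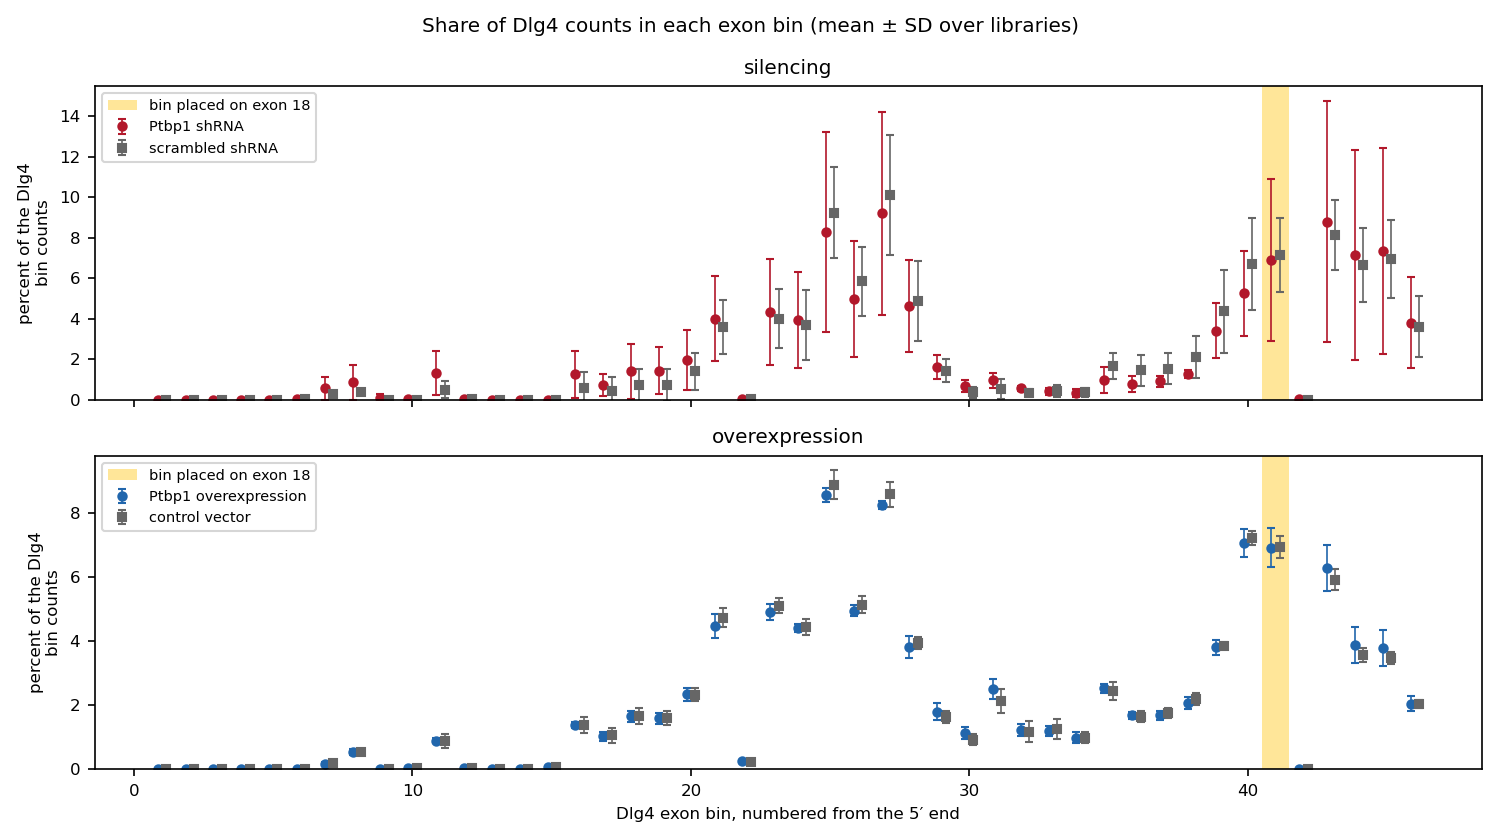
The percent of Dlg4 counts is plotted for each of its 46 bins from the 5′ end, as the mean ± SD over libraries, for silencing (top) and overexpression (bottom), with the bin placed on exon 18 shaded. The means of Ptbp1 overexpression and control vector libraries follow each other along the gene, and bin 42 is close to 0 in every group.

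No other exon bin of the scaffold genes was called either. In overexpression 211 of the 332 bins were tested and 0 were called, against 40 of 117580 bins of all genes, or 0.034%. At an unadjusted p under 0.05 there was 1 bin of the scaffold genes, against 1.37% of all bins. In silencing 171 bins were tested and 0 called, against 1 of 83164 bins, or 0.0012%, and 4 had an unadjusted p under 0.05, against 1.96% of all bins. Shank3 had 0 bins that could be tested in silencing and 6 in overexpression. Simulated 8-fold rises were found for 100 of 100 bins at the spread of overexpression, and for 23 of 100 at that of silencing. Each rise was placed in 1 bin of a gene with at least 8 bins and a well covered one. These simulations held 17325 and 12050 bins, fewer than the tests, so they do not give the power of the tests on scaffold bins.

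The smallest p among the scaffold genes in overexpression was that of bin 32 of Dlg2. It held 0.681%, 0.393%, 0.676%, 0.652% and 0.498% of the Dlg2 counts with Ptbp1 overexpression, against 0.364%, 0.242%, 0.377% and 0.373% with the control vector. All 5 libraries with Ptbp1 overexpression are above all 4 controls, and this is the 1 bin among the 211 whose groups do not overlap, against 1.67% of all bins tested whose groups do not overlap in either direction. The log2 relative usage was 0.55 (edgeR adjusted p = 1.00). In silencing the same bin held 0.270%, 0%, 0% and 0.0184% with Ptbp1 shRNA and 0.333%, 0%, 0%, 1.20% and 1.77% with scrambled shRNA, a log2 relative usage of -2.26 (edgeR adjusted p = 1.00). Libraries at 0 stand in both groups. The groups did not overlap in silencing for 1 of the 171 bins, bin 34 of Dlg2, and for 1.52% of all bins. Bins of Dlg2 are given without coordinates, since the rebuilt bins of Dlg2 put 4 common coding stretches where no read was counted.

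In silencing the smallest p was that of bin 54 of Dlg1, at chr16:31871675-31871846 in mm10, which holds 104 coding bases of 172. It held 0.349%, 0.701%, 1.04% and 0.111% of the Dlg1 counts with Ptbp1 shRNA, against 2.28%, 1.77%, 1.29%, 0.399% and 12.3% with scrambled shRNA. Scrambled shRNA replicate 5 stands far above the rest. It also has the second largest share of well covered bins at 0 in silencing, 7.61%, and a link between them was not tested. The log2 relative usage was -1.92 (edgeR adjusted p = 1.00), and -1.05 without that library. In overexpression the bin took 2.34%, 2.07%, 2.97%, 2.41% and 2.18% with Ptbp1 overexpression and 1.65%, 2.62%, 1.87% and 1.98% with the control vector.

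For the other members the smallest p of a bin lay between 0.0898 (bin 19 of Dlg3) and 0.314 (bin 25 of Shank3) in overexpression, and between 0.0799 (bin 35 of Shank1) and 0.395 (bin 11 of Dlg4) in silencing.

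Alternative coding stretches of Dlg1 and Dlg3, picked here after their values were seen, were used to unequal degrees in the overexpression experiment. In Dlg3 the 46-base bin at chrX:100809862-100809907 took 3.05% ± 0.275 of the counts with Ptbp1 overexpression and 2.66% ± 0.326 with the control vector, whereas the 100-base bin before it, chrX:100808053-100808152, took 0% and 0.0264% ± 0.0527. That 100-base bin is coding, lies in 4 of 8 transcripts, and was at 0 in all silencing libraries. Without its few control vector counts the coordinates of Dlg3 would have been dropped, as those of Dlg2 were. In Dlg1 the 34-base bin at chr16:31847636-31847669 took 1.91% ± 0.286 with Ptbp1 overexpression and 2.12% ± 0.179 with the control vector, whereas the 97-base bin at chr16:31846837-31846933 took 0.0261% ± 0.0285 and 0.0215% ± 0.0264. Neither of the used bins was called.

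How the counts were spread along the scaffold genes set the experiments apart. The share of counts in the last 5 bins, at the 3′ end, was 75.1% ± 2.75 for Shank2 with Ptbp1 overexpression and 76.3% ± 3.44 with the control vector, and 97.0% ± 2.05 with Ptbp1 shRNA and 97.8% ± 1.67 with scrambled shRNA. For Dlgap1 it was 34.1% ± 1.21 with Ptbp1 overexpression and 34.5% ± 3.39 with the control vector, and 76.9% ± 12.3 with Ptbp1 shRNA and 78.9% ± 3.88 with scrambled shRNA. For Dlg4 it was 16.02% ± 2.001 with Ptbp1 overexpression and 15.01% ± 0.641 with the control vector, and 27.1% ± 17.98 with Ptbp1 shRNA and 25.3% ± 5.80 with scrambled shRNA. The mean over the 9 silencing libraries was above that over the 9 overexpression libraries for all 8 genes, with 15.3% against 11.4% for Dlg1 at the low end. Experiment and library preparation cannot be told apart here, and the difference in 3′ share between the experiments was not tested.

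**Figure D5:**
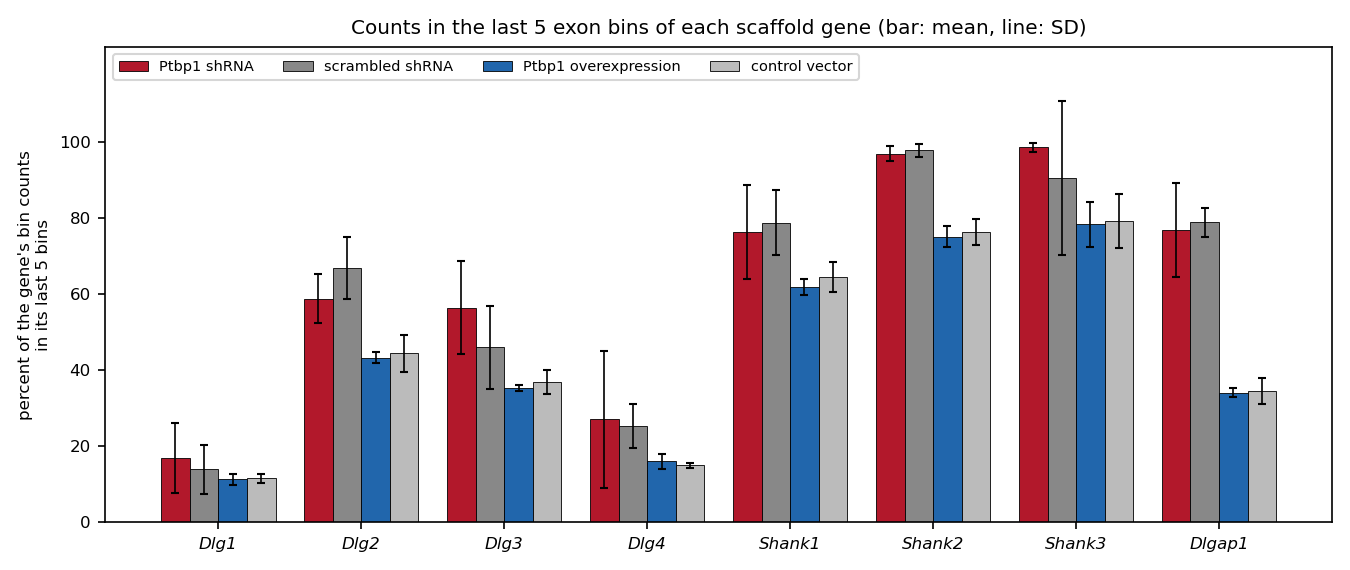
Bars give the mean percent of each gene's bin counts that fall in its last 5 bins, and lines the SD, for Ptbp1 shRNA, scrambled shRNA, Ptbp1 overexpression and control vector from left to right. Both silencing groups stand above both overexpression groups for all 8 genes.

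Over the 9 overexpression libraries the Shank genes and Dlgap1 varied together. On the log2(CPM + 0.5) scale Pearson's r was 0.95 between Shank1 and Shank2, 0.95 between Shank1 and Shank3, 0.97 between Shank2 and Shank3, and 0.90 to 0.94 between Dlgap1 and the 3 Shank genes. Dlg2 had r of 0.69 to 0.85 with these 4 genes, Dlg4 of 0.55 to 0.68, Dlg1 of -0.17 to -0.01, and Dlg3 of -0.91 to -0.84. The points share libraries, depth and the low replicate 3 of Ptbp1 overexpression, so these values are a description. Among 10989 genes with a mean of at least 5 CPM, the one most like Shank1 was Sipa1l1 (r = 0.97), and the one most like Shank3 was Lrrc7 (0.98). For Dlgap1 it was Zfp335 (0.98), for Dlg1 Gm14326 (0.92), for Dlg2 Zfp106 (0.96), for Dlg3 Ncald (0.99) and for Dlg4 Usp45 (0.96).

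No other listed gene of the postsynaptic density passed the test, against the same shares of all genes as above. Of 25 further scaffold genes (Homer, Magi, Grip and the other Dlgap genes among them) 25 were tested in overexpression and 24 in silencing, and 0 passed the test in either. Their median log2 fold change was -0.02 in overexpression and -0.03 in silencing. Homer2, which binds Shank and metabotropic glutamate receptors, had the smallest p of these in silencing, with 233 ± 138 CPM with Ptbp1 shRNA and 464 ± 82.4 CPM with scrambled shRNA (edgeR adjusted p = 0.262). Next was Cttn, the actin-binding partner of Shank, with 71.8 ± 83.5 CPM with Ptbp1 shRNA and 27.1 ± 8.60 CPM with scrambled shRNA (adjusted p = 0.435), whose log2 fold change of 1.40 was 0.18 without Ptbp1 shRNA replicate 3. In overexpression the smallest p values were those of Dlgap2 (log2 fold change -0.24) and Homer3 (0.32), with edgeR adjusted p = 0.974 for both.

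Of 23 glutamate receptor, channel and adhesion genes 0 were called in either experiment, 18 of 23 had fold changes below 0 in overexpression, with a median of -0.13, and 19 of 22 in silencing, with a median of -0.31. The synaptic adhesion gene Lrrtm1 had 39.1 ± 19.3 CPM with Ptbp1 shRNA and 75.9 ± 22.0 CPM with scrambled shRNA (edgeR adjusted p = 0.357). Cacng3, an AMPA receptor auxiliary subunit that binds PSD-95, had 41.2 ± 17.8 CPM with Ptbp1 shRNA and 80.7 ± 31.7 CPM with scrambled shRNA (adjusted p = 0.414). The smallest p values in overexpression were those of the potassium channel gene Kcna4 (log2 fold change -0.38, adjusted p = 0.958) and the neuroligin gene Nlgn1 (-0.31, adjusted p = 0.974).

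Of 16 signalling genes of the density 0 were called, with 14 below 0 in overexpression (median -0.11) and 11 in silencing (median -0.26). Kalrn, a guanine nucleotide exchange factor of spines, had 376 ± 92.9 CPM with Ptbp1 shRNA and 859.9 ± 78.2 CPM with scrambled shRNA. The groups did not overlap, as for 4.84% of all genes in silencing, and the log2 fold change was -1.19 (edgeR adjusted p = 0.0625). Kalrn had the smallest p of this list in both experiments. With 1 library left out the silencing log2 fold change ran from -1.38 to -1.13. Of these 9 runs 1 passed the test, that without Ptbp1 shRNA replicate 4 (-1.38, edgeR adjusted p = 0.0343). With Ptbp1 overexpression Kalrn had 1512 ± 367 CPM, against 2206 ± 332 CPM with the control vector, where the groups overlapped (log2 fold change -0.54, adjusted p = 0.779). Camk2a, which is also an excitatory neuron marker, had 1471 ± 551 CPM with Ptbp1 shRNA and 2725 ± 715 CPM with scrambled shRNA (log2 fold change -0.89, adjusted p = 0.237). The part of the lower excitatory neuron markers in the silencing values was not tested.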

How the data were processed

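Counts were deposited by the authors as whole numbers that were not normalized, per gene for each experiment and per exon bin for each library. The tools named in the submitters' processing notes are STAR 2.5.3a and HTSeq, with mm10 as the build. Neither annotation release nor strand setting is stated there, so overlapping antisense genes may share reads. Of the gene identifiers 37607 matched a symbol. The last 5 lines of each exon file name no bin and stayed out of all tests.

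Genes were fitted within each experiment by edgeR 4.0.16 under R 4.3.3 (filterByExpr, TMM, quasi-likelihood F test, Benjamini-Hochberg at 0.05 over all genes). Bins that passed filterByExpr were tested with diffSpliceDGE against the other bins of their gene; a minimum of 10 counts in 4 libraries was an alternative. Usage is a bin's percent of all bin counts in its gene, compared for exon 18 by an exact permutation test, whose inversion gave the 95% interval. DESeq2 1.42.0 and limma 3.58.1 were alternatives. The fits were tested on simulated data.

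Bin coordinates were rebuilt from GENCODE release M 21. They were used where the number of bins was equal and no common coding bin was at 0 in every overexpression library, which holds for Dlg1, Dlg3 and Shank3.

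The members, lists and the rule for named genes were chosen with earlier results of these data known. The rule takes all members, the genes of each list with the smallest p, and the bin of each member with the smallest p; of the last, those past an unadjusted p of 0.05 are described and the rest given as a range. Of the genes this rule names, 2 are not reported here. Exon 18 was to be counted in the transcript with the most coding exons, where another exon has that number. The exon of 110 bases, the one known to be repressed, was used in its place, a choice made after seeing the annotation. Replicate numbers only name libraries. The p-values set a difference against the spread between libraries, which with 1 library per mouse holds mouse and library preparation together.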

Additional observations from a re-analysis of the deposited data

Results flagged for a closer look

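Over 36 groups of library values examined, 1 had a library set apart from the rest, where chance gives about 1 in 20. It was Dlg1 in the Ptbp1 overexpression group, where replicate 5 had 161 CPM and the other 4 libraries had 137 to 143 CPM.

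Mean usage of Dlg1 bin 54, Dlg2 bin 32 and Dlg3 bin 19 ran opposite ways in the experiments. Other named bins did so too, among them bin 7 of Dlg3, bin 38 of Dlgap1 and bin 30 of Shank2, so this does not set the flagged bins apart. The difference between experiments was not tested for any of them. Bin 54 of Dlg1 averaged 2.40% of the counts of its gene with Ptbp1 overexpression and 2.03% with the control vector, against 0.550% with Ptbp1 shRNA and 3.603% with scrambled shRNA. Bin 32 of Dlg2 averaged 0.580% with Ptbp1 overexpression and 0.339% with the control vector, against 0.0722% with Ptbp1 shRNA and 0.659% with scrambled shRNA. Bin 19 of Dlg3, a coding stretch at chrX:100806512-100806613 in mm10, averaged 3.596% with Ptbp1 overexpression and 2.79% with the control vector, against 1.58% with Ptbp1 shRNA and 2.53% with scrambled shRNA. None of these bins passed the adjusted test in either experiment.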

How the results depend on the processing

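No paired analysis was possible because the labels give the libraries no replicate numbers that tie a mouse of one group to a mouse of another. No scaffold gene and no exon bin of one was called under any alternative run. The number of genes called in silencing was 11 without a filter on low counts, 709 with DESeq2, 84 with limma-voom and quality weights, 1775 with all 18 libraries and 1 spread, and 0 to 5 when 1 library was left out. In overexpression it was 39 with DESeq2, 4 without the 2 least even libraries, 0 with all 18 libraries and 1 spread, and 6 to 9 when 1 library was left out. Without the 2 least even libraries the silencing log2 fold changes of Dlg1 (0.056), Dlg3 (0.0038), Shank1 (-0.32) and Shank2 (-0.014) changed sign, and that of Ptbp1 did so with limma-voom (-0.015). With 1 library left out, silencing log2 fold changes ran from -0.12 to 0.0012 for Dlg1, -0.59 to 0.024 for Dlg3, -0.28 to 0.10 for Dlg4, -0.20 to 0.78 for Shank1, -0.086 to 0.10 for Shank2, -0.76 to 0.84 for Ptbp1, -0.56 to 0.079 for Ptbp2 and -0.068 to 0.44 for Ptbp3. In overexpression they ran from -0.11 to 0.0084 for Dlg2, -0.0017 to 0.065 for Dlg3 and -0.25 to 0.0097 for Shank1. The difference in usage of Dlg4 exon 18 ran from -1.64 to 1.29 percentage points in silencing and from -0.226 to 0.148 in overexpression, and the log2 relative usage of its bin 41 from -0.45 to 0.24 and from -0.034 to 0.021. With the exon that has this number in the transcripts with the most coding exons, chosen after seeing the data, the difference was -0.947 percentage points in silencing (exact permutation p = 0.476) and -0.0530 in overexpression (p = 0.762). Kalrn passed the test in silencing with DESeq2 (adjusted p = 6.97e-06), limma-voom (0.0193) and all 18 libraries (0.00143), and the last fit also called Homer2 (0.0236), Lrrtm1 (0.0381) and Camk2a (0.0236) there, and no longer Ptbp1 and Ptbp2 in overexpression (1.00). The cause of these changes was not tested. Simulated 4-fold changes, placed in genes above a minimum mean level, were recovered for 99 of 200 genes in silencing and 200 of 200 in overexpression. Depth and spread were not varied apart.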
